A study of Mus musculus with 11 samples.

Results

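The miRNAs described here come from 5 hairpins at 4 imprinted loci of the mouse: miR-335 of the Mest locus, miR-675 of H19, miR-483 of Igf2, and miR-296 and miR-298 of the Gnas locus. They were taken by name, any arm, from the small RNA tables of spermatogonial progenitor cells (SPCs). Of the 10 mature forms named, 9 of the 1096 miRNAs listed in both tables were members. miR-675-5p was not analysed here. The loci were chosen partly for the large difference of miR-298-5p between the libraries and for the diverging arms of miR-335, so that every comparison of knockdown with control below is a description and carries no test.

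The SPCs were Thy1-positive germ cells of mouse pups, labelled C57BL/6 and postnatal day 6, whereas the methods of the study name B6;129S-Gt(Rosa)26Sor/J pups as the source. Both groups were grown on mitotically inactivated STO feeder cells, a mouse embryonic fibroblast line, and both were transduced with lentivirus. Control cells carried the empty vector, labelled Mov10 Vector, and the other cells carried an shRNA against Mov10 and were labelled Mov10 knockdown. Each group was 1 small RNA library. The methods mention triplicate samples for the small RNA sequencing without saying whether they were pooled, so that each library may stand for 1 culture or for several. No replicate error exists for any value, and the intervals below cover counting error only.

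At an imprinted locus, a gene is expressed mainly from the chromosome inherited from 1 parent, according to DNA methylation marks set in the germ line. Mest, a hydrolase-like gene of mesodermal tissues, and Igf2, a fetal growth factor, are expressed from the paternal copy, whereas H19, a noncoding RNA, is expressed from the maternal copy. The Gnas locus holds several overlapping transcripts of both parental origins, among them the paternal antisense RNA Nespas. A miRNA hairpin in such a transcript is cut out by Drosha and then by Dicer into a short duplex, of which either the 5p or the 3p strand may be kept by an Argonaute protein. MOV10 is an RNA helicase that associates with Argonaute proteins, and the study asked whether its loss alters the miRNA pool of SPCs.

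Mature sequences are shown for hairpins whose analysed forms had more than a single read, since their arms differ in level and in base composition. They are written 5′ to 3′ as RefSeq gives them for GRCm38.p6, and capitals mark the seed, bases 2 to 8, which pairs with target mRNAs.
miR-335-5p: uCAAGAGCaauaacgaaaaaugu
miR-335-3p: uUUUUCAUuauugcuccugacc
miR-298-5p: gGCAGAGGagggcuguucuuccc
miR-298-3p: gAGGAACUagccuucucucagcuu
miR-296-5p: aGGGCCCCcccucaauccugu
miR-296-3p: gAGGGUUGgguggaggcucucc
miR-483-5p: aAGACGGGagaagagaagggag
miR-483-3p: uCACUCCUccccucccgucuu

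All 10 mature forms had an entry in the RefSeq table. No seed was shared between them or with any other of the 1679 mature names there. None of the mature sequences matched another RefSeq hairpin with up to 1 mismatch, so no second hairpin of that table could have supplied their reads. Bases 2 to 7 were shared with 3 other listed miRNAs, miR-7646-5p with miR-335-5p, miR-5621-3p with miR-296-5p, and miR-3110-3p with miR-483-3p. These had 7, 1 and 1 reads in control SPCs and 0 after knockdown, so that each member was by far the most abundant bearer of its seed among the miRNAs with a sequence here.

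The hairpins sat in different parts of their host transcripts on GRCm38, with host genes taken from GENCODE vM21. Mir335 lies on chromosome 6 from 30741299 to 30741396 on the plus strand, in an intron of all 7 Mest transcripts that span it. Mir483 lies on chromosome 7 from 142654924 to 142654996 on the minus strand, in an intron of all 7 Igf2 transcripts that span it. An intron of 1 Gm49394 transcript on that strand holds Mir483 as well. Mir675, 77.8 kb away on the same strand from 142577064 to 142577147, lies in an exon of 3 H19 transcripts and in an intron of 1. Thus the H19 hairpin is part of the spliced RNA in most annotated forms, whereas the Mest and Igf2 hairpins are removed with an intron. Mir296 (174267047 to 174267125) and Mir298 (174267504 to 174267585) lie 378 bp apart on the minus strand of chromosome 2. Neither overlaps another gene of this annotation, and the annotated 3′ end of Nespas, on the same strand, is 13.7 kb upstream of Mir298.

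Reads were counted per mature miRNA and given as TPM, which is reads per 1000000 of a library total without a length correction. The control library had 9628835 reads on miRNAs and the knockdown library 2794593. The TPM values were divided by larger library totals, 10518277 and 3194363, so that 1 read was worth 0.0951 and 0.313 TPM, and 3 reads, taken as the detection limit, 0.285 and 0.939 TPM. Mov10 itself is not measured in small RNA libraries, and the depletion was not checked here.

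In control SPCs, the 9 miRNAs differed in level by several orders of magnitude. miR-335-3p had 2256 TPM (95% Poisson interval 2227 to 2284) and miR-298-5p had 2242 TPM (2214 to 2271), and their intervals overlapped. They held places 50 and 51 among the 1096 miRNAs. The next in order were miR-335-5p with 411.95 TPM, miR-296-3p with 204 TPM and miR-296-5p with 113 TPM, each separated from its neighbor by more than counting error. miR-483-3p had 12.9 TPM and miR-483-5p 3.42 TPM. miR-298-3p, with 5 reads, and miR-675-3p, with 1 read, could not be told apart. Together the 9 miRNAs took 0.573% of the control miRNA reads, of which 50.9% came from the Mest hairpin, 48.8% from the Gnas hairpins and 0.312% from the Igf2 hairpin. Hence the Mest and Gnas loci were the source of nearly all reads of these 9 miRNAs. miR-675-3p, the only arm of the H19 hairpin analysed, was below the detection limit.

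**Figure D1:**
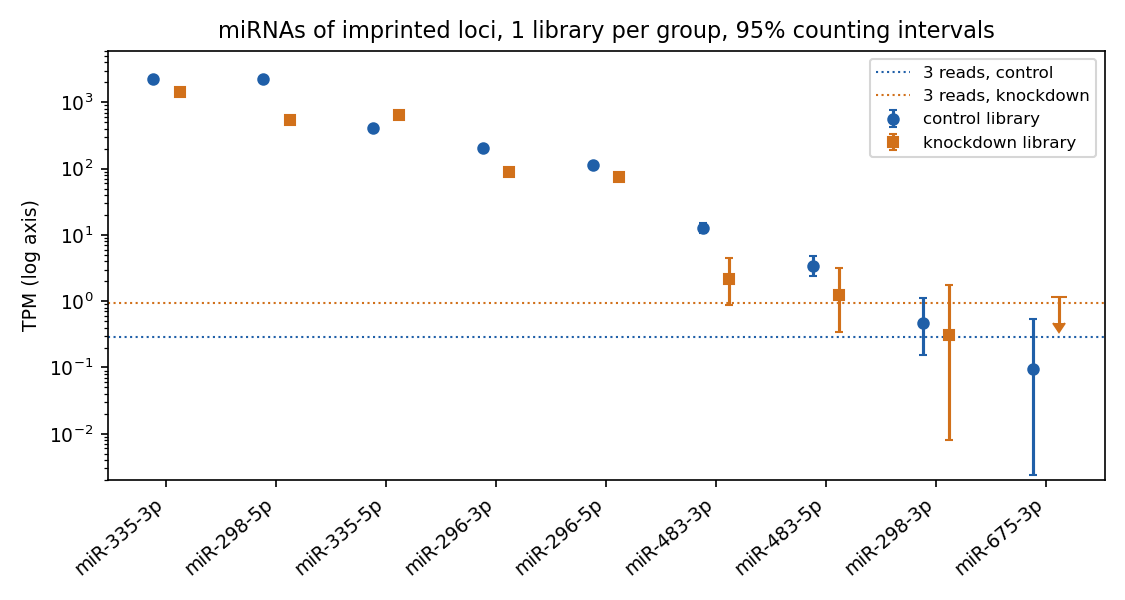
TPM of the 9 miRNAs on a log axis in the control library (circles) and the knockdown library (squares), 1 library each, with 95% Poisson intervals of the reads and dotted lines at 3 reads. miR-335-5p is higher in the knockdown library, at 637 against 411.95 TPM, miR-298-5p is lower, at 545 against 2242 TPM, and the arrow for miR-675-3p marks 0 reads.

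In Mov10 knockdown SPCs, miR-298-5p was the member with the largest loss among those over 100 TPM. It had 23585 reads in control SPCs and 1740 after knockdown, or 2242 and 545 TPM, a ratio of 0.243 (95% counting interval 0.231 to 0.255). Of the 208 miRNAs over 100 TPM in the control, only miR-1195 and miR-142a-5p had a lower log2 fold change, and they are named because of that value. It moved from place 51 in the control to place 93 in the knockdown. Its partner arm miR-298-3p had 5 and 1 reads, and a ratio of 0.659 with an interval of 0.0139 to 5.89, so that no change was detectable at this depth. miR-669a-3p and miR-466b-3p, both hosted by Sfmbt2, had the nearest log2 fold changes among other miRNAs over 100 TPM in the control, 0.0455 and 0.0820 away from the -2.04 of miR-298-5p. This likeness is over 2 libraries only.

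The neighboring hairpin miR-296 showed a smaller difference. miR-296-3p had 2147 and 285 reads, 204 TPM in control SPCs and 89.2 TPM after knockdown, a ratio of 0.437 (0.385 to 0.495). miR-296-5p had 1193 and 241 reads, 113 and 75.4 TPM, and a ratio of 0.665 (0.577 to 0.765). The interval of miR-296-5p covers both sides of the 1.5-fold threshold. The intervals of the levels of both arms overlapped after knockdown and did not overlap in the control. Over both arms, the ratio was 0.519 for miR-296 and 0.243 for miR-298, although the hairpins lie 378 bp apart on 1 strand. In all, the 4 miRNAs of the Gnas locus had 2560 TPM in control SPCs and 710 TPM after knockdown, a 3.61-fold lower sum.

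The arms of miR-335 differed in opposite directions. miR-335-5p had 4333 reads in control SPCs and 2035 after knockdown, 411.95 and 637 TPM, a ratio of 1.55 (1.47 to 1.63). miR-335-3p had 23725 and 4572 reads, 2256 and 1431 TPM, a ratio of 0.635 (0.615 to 0.655). Although the 3p arm was the more abundant strand in both libraries, the gap between the arms was narrower in the knockdown. The nearest log2 fold changes to that of miR-335-3p (-0.66) among other miRNAs over 100 TPM in the control were -0.65 for miR-191-5p and -0.66 for miR-292a-5p. Over both arms the hairpin had 2668 and 2068 TPM, a log2 ratio of -0.37 (-0.41 to -0.33), close to the median of all miRNAs given below. Of the member reads, the Mest hairpin made up 74.4% in the knockdown.

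For both arms of miR-483 and for miR-675-3p the reads were few. miR-483-3p had 12.9 TPM in control SPCs and 2.19 TPM, or 7 reads, after knockdown, a ratio of 0.169 (0.0669 to 0.359). miR-483-5p had 36 and 4 reads, 3.42 and 1.25 TPM, and its ratio of 0.366 had an interval of 0.0946 to 1.02, which includes equal levels. Both arms of the Igf2 hairpin were thus lower in the knockdown library, the 3p arm beyond counting error. miR-675-3p had 1 read in control SPCs and 0 after knockdown, where the limit of 3 reads allows up to 0.939 TPM and the Poisson interval reaches 1.15 TPM. Both libraries were under the detection limit, and no fold is given. The level of H19 RNA itself was not measured in these libraries.

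A miRNA above 1.5 TPM in the higher library was called reduced or raised when its TPM ratio passed 1.5-fold. Above this minimum were 7 of the 9 members, of which 6 were reduced and 1 (miR-335-5p) was raised. The counting intervals of miR-335-5p, miR-296-5p and miR-483-5p took in the 1.5-fold line, so these calls are within counting error of it. Of all 607 miRNAs above the minimum, 41.7% were reduced and 16.0% raised. With the same fold and TPM limits the paper counts more reduced and fewer raised miRNAs, without saying which library the TPM limit was for. Since the members were chosen partly on this contrast, nothing is read from their count. Their median log2 fold change, with 0.1 added to each TPM, was -1.19, and that of the 607 miRNAs was -0.37.

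**Figure D2:**
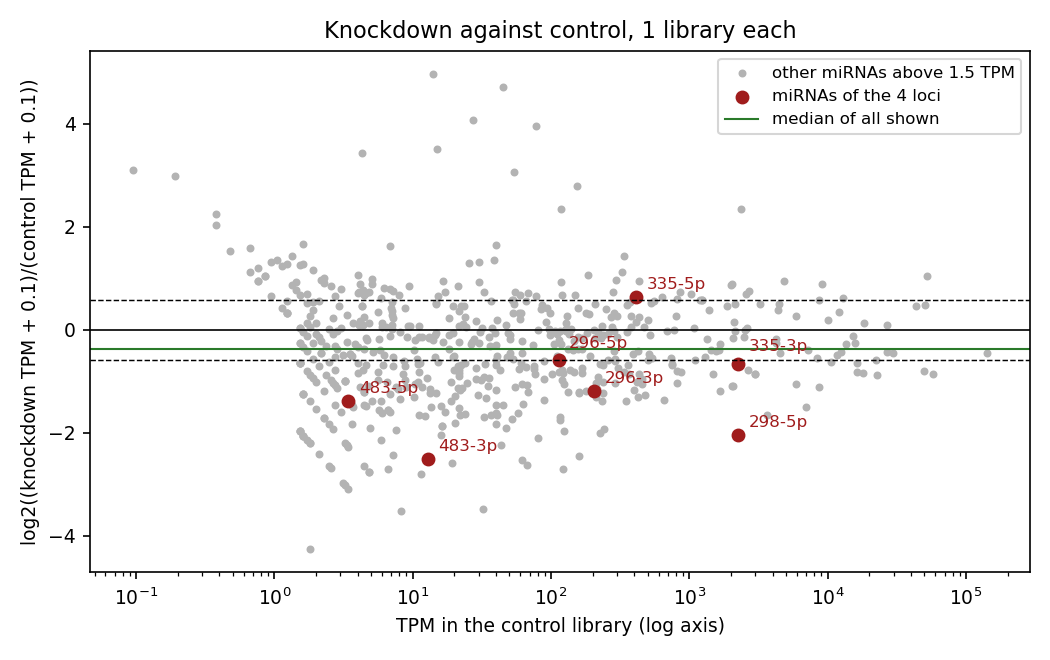
Log2 fold change of knockdown against control (0.1 added to each TPM) for the 607 miRNAs above 1.5 TPM, plotted against TPM in the control on a log axis, with 1 library per group. Large points are the 7 members above the minimum, dashed lines mark 1.5-fold, and the green line marks the median of -0.37, below which lie all members but miR-335-5p.

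The share of the 5p arm within a hairpin does not depend on how the libraries are scaled. For miR-335 it was 15.4% of 28058 reads in the control (95% exact binomial interval 15.0 to 15.9%) and 30.8% of 6607 reads in the knockdown (29.7 to 31.9%). For miR-296 it was 35.7% (34.1 to 37.4%) and 45.8% (41.5 to 50.2%). For miR-483 it was 20.9% (15.1 to 27.8%) of 172 reads and 36.4% (10.9 to 69.2%) of 11 reads. miR-298 was read almost entirely from the 5p arm, at 99.98% in control SPCs and 99.94% after knockdown. The 5p share was therefore higher in the knockdown beyond counting error for miR-335 and miR-296, and for miR-483 the intervals overlapped.

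Among hairpins at large, the 5p share was higher in the knockdown about as often as it was lower. Of 172 hairpins with at least 50 reads over both arms in each library, it was higher in 87 and lower in 85, and the median size of the difference was 0.882 percentage points. The difference of 15.4 points for miR-335 was reached or passed, in either direction, by 6 of these hairpins including itself. In points, a hairpin read mostly from a single arm can change little. The log2 change of the ratio between the arms was taken for the 139 hairpins with both arms above 1.5 TPM. By this measure 12 of the 139 reached miR-335, itself included, against a median size of 0.47. The others by points were mir-32, mir-34b, mir-362, mir-466c-1 and mir-664, named after their values were seen. With at least 200 reads, mir-34b and miR-335 were the 2 of 141 hairpins by points. By the log2 ratio, 8 of the 116 with both arms above 1.5 TPM reached miR-335. A rise of at least the 10.1 points of miR-296 was found in 8 of the 172. Both arms past 1.5-fold in opposite directions were found in 2 of 139 hairpins with both arms above 1.5 TPM, or 1.44%, which are miR-335 and miR-362. Since miR-335 was chosen partly for this divergence, nothing is read from that share. For miR-362, named after its values were seen, the reads were 200 and 30 for the 5p arm and 181 and 92 for the 3p arm, so that its arms diverged in the other sense.

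**Figure D3:**
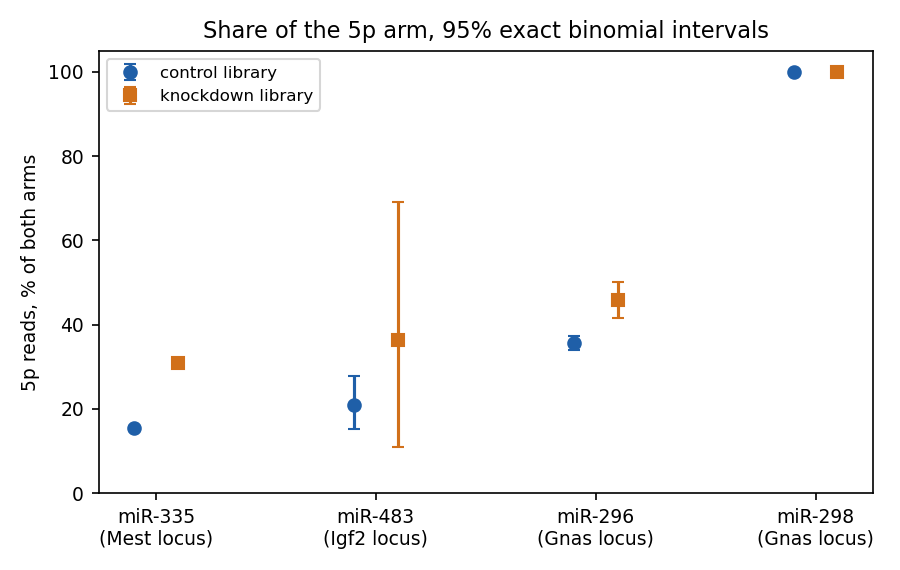
Reads of the 5p arm as a percentage of the reads of both arms for each hairpin in the control library (circles) and the knockdown library (squares), with 95% exact binomial intervals. The share of miR-335 is 15.4% in control SPCs and 30.8% after knockdown, that of miR-296 is 35.7% and 45.8%, and the wide interval of miR-483 in the knockdown rests on 11 reads.

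Strand choice is known to favor the arm whose 5′ end is paired less tightly in the duplex. In the fold of lowest energy predicted with ViennaRNA for the RefSeq hairpins, the first 4 bases of miR-335-3p, the major arm, formed 4 A-U pairs. Those of miR-335-5p formed 1 G-C and 2 A-U pairs with 1 base unpaired. The first 4 bases of both miR-296 arms formed 2 G-C, 1 A-U and 1 G-U pair. miR-298-5p had 2 G-C pairs, 1 G-U pair and 1 unpaired base, and miR-298-3p had 2 G-C, 1 A-U and 1 G-U pair. miR-483-5p had 1 G-C and 3 A-U pairs, and miR-483-3p had 1 G-C pair, 1 A-U pair and 2 unpaired bases. These are predictions from sequence, with energies of -44.3, -43.2, -42.7 and -33.8 kcal/mol for miR-335, miR-296, miR-298 and miR-483. The part of end pairing in the arm shares was not tested.

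The size of the differences depended on the divisor of each library. The median log2 fold change of all miRNAs moved from -0.37 with the deposited TPM to -0.12 with the median ratio scaling. This scaling shifts every log2 ratio by 0.25, and its divisor was not the median of these 607 miRNAs. The counts over all miRNAs then became 193 reduced and 147 raised, against 253 and 97. Relative to the median of all miRNAs, the log2 fold change was -1.68 for miR-298-5p, -0.83 for miR-296-3p, -0.29 for miR-335-3p and 0.99 for miR-335-5p. With TMM factors or the median ratio, 4 members were reduced, miR-298-5p, miR-296-3p and both arms of miR-483, and miR-335-5p stayed raised. miR-335-3p had -0.44 and -0.40 and miR-296-5p -0.37 and -0.34 under these scalings, inside the 1.5-fold lines. Without any scaling, that is with 1 common total for both libraries, all 7 members were lower, and miR-335-5p turned to -1.09.

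**Figure D4:**
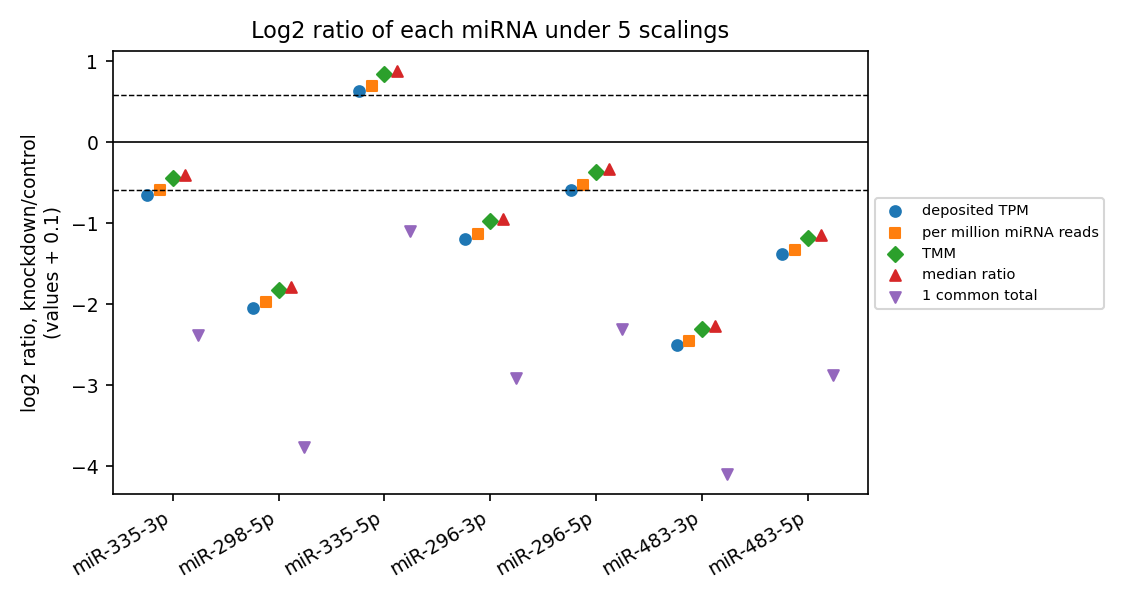
Log2 ratio of knockdown to control for the 7 members above 1.5 TPM under 5 scalings (symbols), with 0.1 added to each value and dashed lines at 1.5-fold. miR-298-5p runs from -1.79 to -2.04 under the 4 scalings that divide each library by its own size and is at -3.76 with 1 common total, where miR-335-5p turns from 0.63 to -1.09.

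The members differed in base composition. The mature sequences of the Gnas locus members above the minimum held 65.2 to 68.2% G and C, those of miR-483 61.9 and 54.5%, and those of miR-335 36.4% for the 3p and 30.4% for the 5p arm. A sequence was at hand for 492 of the 607 miRNAs (81.1%), and this comparison was added after seeing the data. The 80 miRNAs of 55 to 65% G and C had a median log2 fold change of -0.54 and the 28 of 65 to 75% had -0.96, whereas the 206 of 45 to 55% had -0.15. The 6 above 75% went the other way, with a median of 3.25. Of the 80 and 28 miRNAs, 46.2% and 60.7% were reduced, against 35.9% of the 206. Among the miRNAs within 5 points of miR-298-5p, miR-296-5p and miR-296-3p, members left out, the medians were -0.52, -0.52 and -0.49. Of these, 37.5 to 40.4% were reduced, near the 41.7% of all miRNAs. The range of 65 to 75% included the members, but without them its median stayed close to -0.96. The difference thus lay mainly in the cut, since the comparisons within 5 points also took in miRNAs below 65%. The part of base composition in the members' values was not tested. Against other miRNAs within 5 points of its own GC content, miR-298-5p differed from the median of 57 by -1.52 on the log2 scale, and 7 of them were at or below its value. miR-296-3p differed by -0.70 from the median of 40, whereas miR-296-5p differed by -0.07 from the median of 49. At -0.59, miR-296-5p was thus about the median of other miRNAs within 5 points, but above the -0.96 of the 65 to 75% range. miR-335-3p differed by -0.64 from the median of 141, of which 40 were at or below it, and miR-335-5p by 0.78 from the median of 34, of which 4 were at or above it.

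**Figure D5:**
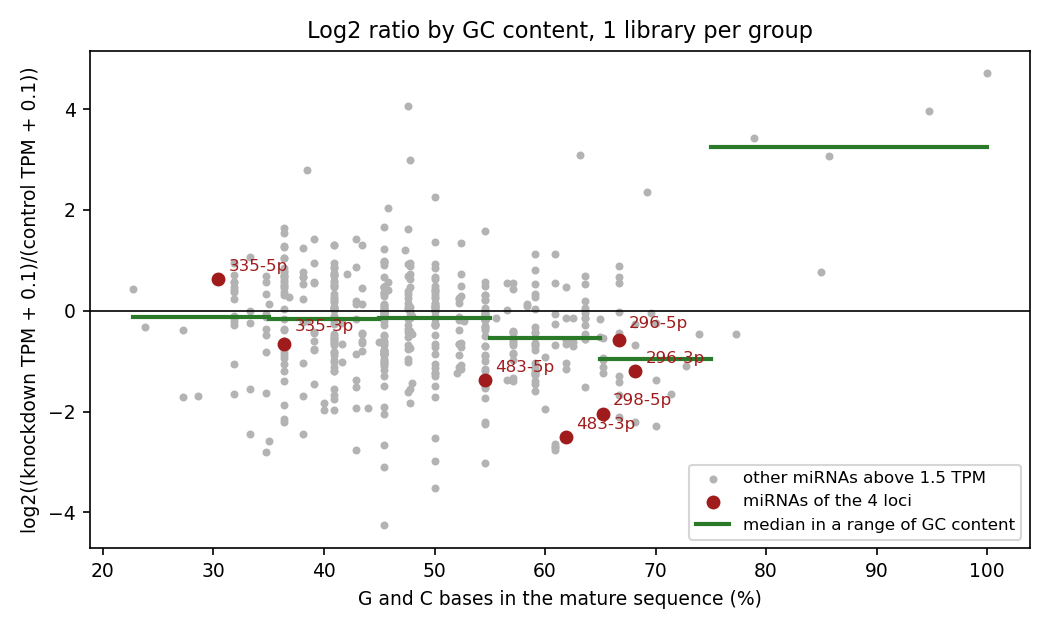
Log2 fold change of knockdown against control (0.1 added to each TPM) by the percentage of G and C bases in the mature sequence, for 492 miRNAs above 1.5 TPM with 1 library per group. Green lines are medians in ranges of GC content, -0.15 from 45 to 55% and -0.96 from 65 to 75% (the last range, above 75%, holds 6 miRNAs with a median of 3.25), and miR-298-5p lies below and miR-335-5p above the line of its range.

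miRNAs of other imprinted loci were set beside the members. Between Dlk1 and Dio3 on chromosome 12, an imprinted region with a large maternally expressed miRNA cluster, 70 mature forms were listed and 38 were above 1.5 TPM. Of these, 29 were reduced and 1 was raised, with a median log2 fold change of -1.30. The most abundant was miR-127-3p, with 814 TPM in control SPCs and 397 after knockdown, followed by miR-541-5p with 242 and 63.2 TPM. In Sfmbt2, an imprinted gene with a large intronic miRNA cluster, 43 of 50 miRNAs above 1.5 TPM were reduced and 1 was raised, with a median of -1.13. miR-467a-5p had 292 and 142 TPM and miR-669a-3p 226 and 56.7 TPM, and many members of this cluster come from near-identical hairpins, so that their counts are uncertain. miR-184-3p, from the imprinted Rasgrf1 region, had 652 and 34 reads, 62.0 and 10.6 TPM. The shares reduced were 76.3% for Dlk1-Dio3 and 86.0% for Sfmbt2 beside 41.7% of all miRNAs, and with 1 library per group no test of these shares was made. Under the scalings by miRNA reads, median ratio and TMM, the medians of both clusters stayed below 0, between -1.24 and -0.88.

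The cultures hold feeder fibroblasts as well as germ cells, and fewer cells of a type cannot be told apart from less RNA per cell in such libraries. All 9 miRNAs of a mesenchymal list (both arms of miR-143, miR-145a and miR-214, both of miR-199a, and miR-199b-5p) were detected in both libraries. Of these, 0 were reduced and 1, miR-199b-5p, was raised, and the list summed to 25554 TPM in control SPCs and 29335 after knockdown. Its lowest member had 2.85 TPM in the control. Of 9 listed miRNAs known from spermatogonial stem cells, 2 were reduced (miR-183-5p and miR-106a-5p) and 3 raised (miR-21a-5p, miR-34c-5p and miR-221-3p), and their sum was 216766 and 238889 TPM. Neither list is restricted to 1 cell type, and the part of a shift between germ cells and feeder cells in the values of the imprinted miRNAs was not tested. Within the same libraries, the sum of the members was 5244 TPM in control SPCs and 2781 after knockdown, a ratio of 0.530. The ratio was 1.15 for the mesenchymal and 1.10 for the spermatogonial list. Of the 5244 TPM, 2242 came from miR-298-5p, which was chosen partly for its fall. Nothing is therefore read from the member ratio beside those of the lists. The spermatogonial ratio rested on miR-21a-5p, with 51967 TPM in control SPCs and 107056 TPM after knockdown. This differs in direction from the paper, which reports lower mature miR-21a after knockdown by RT-qPCR. The measures are unlike, since that RT-qPCR was set against U6 and TPM is a share of each library. The reads of miR-21a-5p were 546601 in the control and 341977 in the knockdown. Without miR-21a-5p the ratio of the spermatogonial list was 0.800, and without miR-182-5p, the most abundant of the list, it was 1.81. Without miR-143-3p, its most abundant miRNA, the mesenchymal ratio was 1.28.

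Entries of the table with no arm in their name stood apart from all others, which was noticed after seeing the data. They numbered 103 and summed to 5615 TPM in control SPCs and 20224 TPM after depletion, a ratio of 3.60, whereas the 993 entries with an arm had a ratio of 0.939. Of the 53 above 1.5 TPM, 22 were raised and 13 reduced, and 5 of them were among the 6 entries above 75% G and C. The most abundant after depletion was miR-5099, with 2369 and 12042 TPM. All 9 imprinted miRNAs described here carry an arm in their name, and 43.3% of the 554 such entries above 1.5 TPM were reduced and 13.5% raised, with a median log2 fold change of -0.42. What sets these entries apart, and its part in the values of the imprinted miRNAs, was not tested.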

How the data were processed

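Small RNA libraries of control and Mov10 knockdown SPCs were compared, 1 library per group. RNA-seq and CLIP-seq samples of the series were not used here. The members and lists were chosen with earlier results of these data known. The authors removed rRNA reads and adaptors with Fastx and mapped reads to miRBase without base mismatch in CLC Genomics Workbench. The labels also name Cufflinks 2.1.1, which the methods give for FPKM values and not for miRNAs. The authors deposited raw read counts per mature miRNA. The deposited TPM values equal reads divided by a library total, worked out here as 10518277 for the control and 3194363 for the knockdown, with the listed reads making up 91.5% and 87.5% of it. How reads shared between hairpins were assigned is not given in the sources used here. A lower depth makes low levels less precise in the knockdown.

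TPM ratios were given with 95% exact conditional binomial intervals, levels with Poisson intervals and arm shares with exact binomial intervals. No p-value was computed. All members were named, with the 2 nearest miRNAs by log2 fold change over 100 TPM for miR-298-5p and miR-335-3p, miRNAs sharing seed bases, at most 2 per other imprinted list and up to 3 per cell type list. In the mesenchymal and spermatogonial lists, the other names give the list's content or the calls. miR-202-5p of the spermatogonial list was not analysed here. Calculations were tested on simulated reads. Intervals were computed with scipy 1.17.1 under Python 3.11.15 (tables with pandas 2.3.3 and numpy 2.4.6), folds with ViennaRNA 2.7.2, TMM factors with edgeR 4.0.16 under R 4.3.3, and plots with matplotlib 3.10.9.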

Additional observations from a re-analysis of the deposited data

How the results depend on the processing

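No paired analysis was possible because control and knockdown SPCs were each sequenced as 1 library. The number of members reduced over 1.5-fold was 6, and 4 to 8 under the alternatives run, with 1 raised in all but a pair of them. The number of members raised was 0 at a 2-fold threshold and 0 with 1 common total. With 1 common total the member median moved from -1.19 to -2.87. Under the other alternatives that median lay between -1.19 and -0.92. With 1 common total miR-335-5p reversed to -1.09, and the medians of the mesenchymal list to -1.59 and of the spermatogonial list to -1.53, the latter 2 added after seeing the data. The summed TPM ratio of the spermatogonial list, 1.10, turned to 0.800 without miR-21a-5p, likewise added after seeing the data. By construction this scaling moves every ratio by -1.72, the log2 ratio of the totals. Over all miRNAs, 253 were reduced and 97 raised. The numbers were 561 and 10 with 1 common total, 579 and 208 without a minimum, 157 and 53 with a minimum of 10 TPM, and 163 and 43 at a 2-fold threshold. TMM and the median ratio gave 149 and 147 raised. Arms in opposite directions past 1.5-fold were found in 0 to 3 hairpins under other scalings, added after seeing the data, against 2. miR-335 was not among them with TMM or the median ratio, where its 3p arm stood inside the threshold. With the deposited TPM and at least 200 reads per library, it was the 1 hairpin left. The depth of the knockdown library limits miR-483, miR-298-3p and miR-675-3p.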
